A study of Mus musculus with 20 samples.

Results

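The RNA that brain left in control immunoprecipitations was compared here with the RNA that duodenum, liver, spleen and bone marrow left in theirs. Of the 20 Affymetrix mouse genome arrays of the series, the 10 titled as control immunoprecipitations were used, 2 of brain and 8 of the other tissues (2 each). They were quantile-normalized together, which gives every array the same distribution of values. A probe set was called brain-rich where both brain controls lay above all 8 other controls. That rule took 5392 of 45037 probe sets (12%), after 64 Affymetrix control probe sets were dropped.

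All mice were C57BL6/J, of both sexes per the labels. Brain RNA was pooled over 6 mice aged 8 to 10 weeks, whose diet was iron-normal. Bone marrow had the same age, diet and pool size. Duodenum, liver and spleen came from pools of 4 mice each. After weaning, those mice had spent 21 days on a diet holding under 10 mg/kg iron. Each reaction took 50 µg of total RNA. The control reactions received the antibody against the His tag but no recombinant His-tagged IRP2, and 120 ng of recovered RNA was amplified for an array. The other 10 arrays hold the reactions with IRP2 (iron regulatory protein 2) from the same tissues, 2 per tissue. They entered no rule here and serve as a repeat of the tissue difference in other reactions. Between brain and bone marrow only the tissue differs in the labels, while against the other tissues age and diet cannot be told apart from tissue. Y-linked transcripts, given below, differed between arrays all the same, brain replicate 1 and bone marrow among them. Whether the sex make-up of the pools differed was not tested, and it cannot be told apart from tissue. Whether the 2 arrays of a tissue came from separate pools is not given, so a p-value here measures only how these arrays spread, and part of that spread may be technical.

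IRP2 binds iron-responsive elements, RNA hairpins in the mRNAs of iron uptake, storage and export. RNA that comes down without it is called background here. How closely it follows the RNA content of the tissue was not tested, since no array of input RNA was used. Brain RNA is known for the transcripts of neurons, which release transmitter from synaptic vesicles, read it with receptor channels and carry long axons filled with neurofilament and microtubules. It also holds transcripts of oligodendrocytes, which wrap axons in myelin, and of astrocytes, which clear glutamate and feed neurons. Most neurons and glia of the adult brain do not divide, and they carry little of the antigen-presenting machinery that immune and epithelial cells carry. In such bulk RNA, fewer cells of a type and less RNA per cell cannot be told apart.

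The 2 brain controls differed from each other more than the replicates of any other tissue did. Spearman's rho over all probe sets was 0.947 between them, against 0.969 in bone marrow, 0.985 in duodenum, 0.991 in liver and 0.994 in spleen. Their deposited values also came in different ranges. Brain replicate 1, like duodenum and liver, had an array median between 5.65 and 5.71. Replicate 2, like bone marrow and spleen, had one between 5.38 and 5.49. Each range thus holds 1 brain control and 4 of the other controls.

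The brain libraries also parted on transcripts that the labels would have alike. Eif2s3y, a Y-linked translation factor gene, read 2.54 in brain replicate 1 and 7.32 in replicate 2 (all values are normalized log2 intensities). Bone marrow read 8.24 and 7.77, and the 6 arrays of duodenum, liver and spleen read 2.35 to 2.7. Kdm5d, another Y-linked gene, read 2.85 and 5.57 in brain. Xist, the RNA of the inactive X chromosome, was bright on all 10 arrays on 1 probe set, 11.25 and 10.87 in brain. On its 2 other probe sets the brain replicates read 8.94 and 7.67, and 8.52 and 7.1. The pituitary hormone gene Prl (prolactin) read 10.23 in replicate 1 and 4.18 in replicate 2, against 3.89 to 4.92 in the other tissues. The IRP2 arrays of brain showed the same split, with Eif2s3y at 2.42 and 7.0 and Prl at 9.94 and 4.28. These genes were chosen after their values were seen. Results below rest on both libraries, except those given with 1 brain replicate left out or within a single deposited range. Such fits hold 1 brain array, so brain's own spread does not enter them. Without replicate 1 the comparison with the other tissues called 6423 probe sets higher and 8105 lower, and without replicate 2 it called 5687 and 7077, against 6016 and 7301 with both.

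Promoters of 3 brain-rich genes are printed because they hold letters that bear on a known feature of neuronal genes. The repressor REST silences many neuronal genes outside the nervous system by binding a long element whose first part reads TTCAGCACC, and CREB binds TGACGTCA. The 300-base windows are RefSeq promoters on GRCm38.p6, 250 bases before to 50 after the annotated start, in the direction of the gene. Capitals mark TTCAGCACC, its reverse complement GGTGCTGAA, or TGACGTCA. The windows are chr1:84696172-84696471 (minus strand) for Dner, a Notch-like receptor of neurons, chr1:79439977-79440276 (minus strand) for Scg2, the granule protein secretogranin II, and chrX:20920869-20921168 (minus strand) for Syn1, the vesicle protein synapsin I.
Dner: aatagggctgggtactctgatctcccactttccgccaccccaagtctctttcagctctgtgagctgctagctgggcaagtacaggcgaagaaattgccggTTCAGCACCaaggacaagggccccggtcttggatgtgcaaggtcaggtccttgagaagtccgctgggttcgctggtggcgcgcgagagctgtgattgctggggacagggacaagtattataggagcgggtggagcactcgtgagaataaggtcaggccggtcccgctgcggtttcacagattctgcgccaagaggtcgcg
Scg2: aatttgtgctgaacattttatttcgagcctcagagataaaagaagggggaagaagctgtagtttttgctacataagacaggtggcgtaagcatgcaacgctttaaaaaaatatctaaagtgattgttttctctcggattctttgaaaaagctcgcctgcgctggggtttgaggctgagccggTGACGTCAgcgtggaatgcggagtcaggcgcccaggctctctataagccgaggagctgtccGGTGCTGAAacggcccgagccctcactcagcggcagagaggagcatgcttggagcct
Syn1: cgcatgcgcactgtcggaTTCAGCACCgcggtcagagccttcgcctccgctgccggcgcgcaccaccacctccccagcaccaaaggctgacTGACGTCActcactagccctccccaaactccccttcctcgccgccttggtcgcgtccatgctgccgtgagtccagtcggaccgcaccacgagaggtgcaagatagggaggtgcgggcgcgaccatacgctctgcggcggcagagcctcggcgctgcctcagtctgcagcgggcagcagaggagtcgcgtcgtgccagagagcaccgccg
The first motif begins 150 bases before the start in Dner and 232 before it in Syn1. In Scg2 it begins 7 bases before the start, on the other strand.

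Few brain-rich promoters carried these letters. TTCAGCACC on either strand lay in 18 of 2156 brain-rich genes that were called higher and had a promoter in the table (0.835%). It lay in 7 of 1741 genes below all 8 and called lower (0.402%), in 61 of 11597 tested genes (0.526%) and in 117 of 27025 genes of the table (0.433%). With GGACAG placed 2 bases after it, the longer form was found in 0 brain-rich and 0 brain-low genes and in 4 genes of the table. TGACGTCA lay in 87 brain-rich genes (4.04%), 46 brain-low genes (2.64%), 369 tested genes (3.18%) and 549 genes of the table (2.03%). These are matches of letters in a short window and were not tested.

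Brain background RNA differed widely from the mean of the other 4 tissues. The difference was fitted with limma as brain minus the mean of the 4 tissue means. It covered the 28716 probe sets that reached their own array's median on at least 2 of the 10 arrays. All 5 tissues shared 1 spread in this fit. The replicate difference had an SD of 0.64 in brain, against 0.218 in spleen to 0.522 in bone marrow. Where the 2 brain arrays stand far apart, the SE and adjusted p draw on the tighter tissues and understate brain's error. At a Benjamini-Hochberg adjusted p under 0.05, 6016 probe sets were higher in brain (20.9%) and 7301 were lower (25.4%). Of the higher ones, 1194 exceeded 3 on the log2 scale (8-fold), against 384 of the lower ones. The median over all tested probe sets was -0.19. A gene high in brain alone shows its full difference on this contrast, while one high in a single other tissue is divided by 4. These counts thus do not show that the higher ones moved further.

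The rule and the fit used the same 10 arrays, so their overlap is a description. Of the 5392 brain-rich probe sets, 4304 were tested and 4223 were called higher, and 1088 did not pass the filter on low values. Of the tested probe sets, 1085 passed the filter through the brain arrays alone, and such probe sets had to be high in brain. The gap between the lower brain array and the highest other array had a median of 0.733 and exceeded 3 for 624 probe sets. With brain replicate 2 alone the rule took 7914 probe sets and with replicate 1 alone 6833. The mirror rule, both brain arrays below all 8, took 4507 probe sets (10.0%), of which 3416 were tested and 3152 called lower. It took 10434 with replicate 2 alone and 9065 with replicate 1 alone. The same rule took 5604 probe sets for bone marrow (12.4%), 4561 for liver (10.1%), 4503 for spleen (10.0%) and 3229 for duodenum (7.17%), so bone marrow had a longer list of its own than brain. Below all 8 others, brain had the longest list of the 5 tissues on control arrays, while on IRP2 arrays bone marrow had (4445 probe sets, against 4126 for brain).

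**Figure D1:**
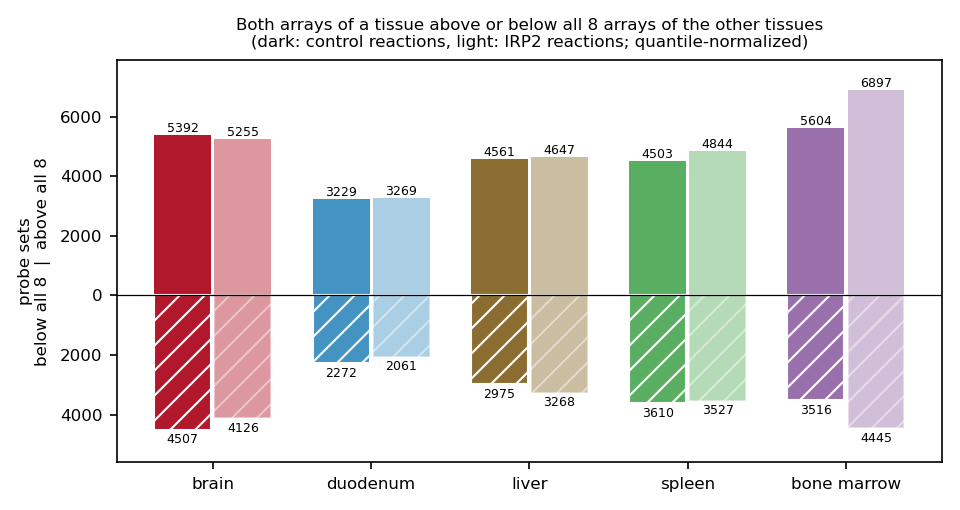
Number of probe sets (y axis) on which both control arrays of a tissue lie above all 8 arrays of the other tissues (bars upward) or below all 8 (hatched bars downward), for each of the 5 tissues, with the same counts on the IRP2 arrays in lighter bars. Brain has 5392 above and 4507 below on control arrays, and 5255 and 4126 on IRP2 arrays.

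The IRP2 arrays, which the rule did not use, gave nearly the same set. On them 5255 probe sets were brain-rich (11.7%), and 4655 were brain-rich in both reactions, which is 86.3% of the control list and 88.6% of the IRP2 list. The brain-low lists shared 2737 probe sets, 60.7% of the control list and 66.3% of the IRP2 list. The limma fit on the IRP2 arrays called 6264 probe sets higher (21.8%) and 7649 lower (26.6%). It called 5644 of the 6016 higher probe sets again (93.8%) and 6471 of the 7301 lower ones (88.6%), and none was called the opposite way. Per the labels the control ran in parallel with the IRP2 reaction on pooled tissue RNA, so this may repeat the reaction and the array only, and not the animals.

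At the edge of the rule the gaps are small. The tryptophanyl-tRNA synthetase gene Wars lay just inside, with brain at 8.74 and 9.43 and the highest other array at 8.74. Ywhaq and Fat4 were the next inside, at 9.05 and 9.17 against 9.05 and at 6.43 and 6.34 against 6.34. Just outside were Sf1, which read 14.86 on all 10 arrays, Gab1 at 8.52 and 8.3 against 8.31, and Sclt1 at 6.77 and 6.8 against 6.77.

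The gene furthest above the other tissues was Zic1. It encodes a zinc finger transcription factor of cerebellar and dorsal neurons, and read 12.35 and 12.11 in the brain controls. In the other 8 controls it ran from 2.31 through a median of 2.35 to 2.62. No array of another tissue came near brain, and the difference was 9.85 ± 0.15 (SE), or 923-fold. Mbp, myelin basic protein, read 13.05 and 13.2 in brain on its most extreme probe set, against 3.23, 4.2 and 4.83 (lowest, median and highest of the others). That was 9.02 ± 0.15. Nefl, the light neurofilament chain, read 12.15 and 12.04 against 2.85, 3.52 and 3.87, a difference of 8.66 ± 0.15. Groups were as far apart for Snap25, the SNARE protein that fuses synaptic vesicles. It read 11.26 and 12.15 in brain against 2.63, 3.0 and 3.89 elsewhere, or 8.55 ± 0.24.

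The rest of the 15 highest genes followed without overlap between brain and the other arrays. Rnf112, a ubiquitin ligase of neurons, differed by 8.75 and Trim9, a ubiquitin ligase of axon guidance, by 8.62. Elavl2, an RNA-binding protein that stabilises neuronal mRNAs, differed by 8.46. Dner read 12.16 and 11.94 against 2.39, 3.7 and 5.98, and differed by 8.15 ± 0.16. Its lowest brain value thus stood clear of even the brightest other array. Gpm6a, a membrane glycoprotein of neurites, differed by 8.1 and Gria2, the AMPA receptor subunit that sets calcium permeability, by 8.04. Mapk10 (the neural JNK kinase) and Fam107a (an actin-associated protein of astrocytes) both differed by 7.97. Snhg11, a noncoding host transcript of small nucleolar RNAs, followed at 7.79, Stmn3, a tubulin-binding stathmin, at 7.66 and Vsnl1, a neuronal calcium sensor, at 7.64. These genes were chosen by the rule and by the size of the difference, and most passed the filter through the brain arrays alone, so their values are a description without a test.

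The 10 genes furthest below the other tissues were chosen in the same way. Fabp4, the fatty acid carrier of adipocytes and macrophages, read 3.19 and 2.21 in brain. The others ran from 8.2 through 9.41 to 10.41. All 8 lay above both brain arrays, and the difference was -6.70 ± 0.34. Mki67, the proliferation antigen Ki-67, read 5.34 and 4.86 against 7.16, 11.11 and 12.92, or -5.48 ± 0.17. Igha and Jchain, the heavy and joining chains of IgA, differed by -6.23 and -5.76. Plac8 differed by -6.67, the unnamed transcript AI662270 by -5.97, the mitotic gene Cdca5 by -5.24 and the tetraspanin Tspan8 by -5.14. Akr1c13, an aldo-keto reductase, differed by -5.13 and Cytip, a cytohesin-binding protein of leukocytes, by -5.09. On the IRP2 arrays, which the choice did not use, all 25 of these genes differed in the same direction, from 9.75 (Zic1) to -6.19 (Fabp4). The IRP2 fit kept the probe sets that had passed the filter on the control arrays. With gaps this wide between the same tissues a repeat could hardly fail, so this is a description.

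**Figure D2:**
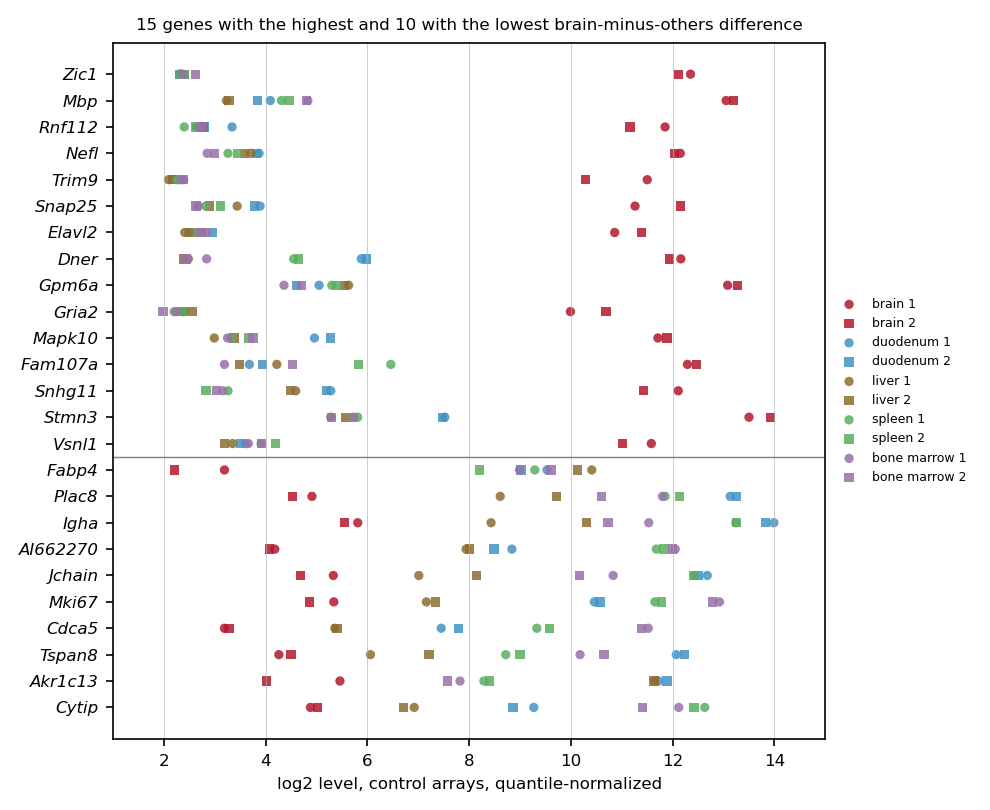
Normalized log2 intensity (x axis) of the 15 genes highest and the 10 lowest in brain relative to the other tissues, 1 row per gene, with 1 point per control array coloured by tissue. Both brain points lie beyond all 8 others in every row, since the rule required it. Zic1 at the top lies at 12.35 and 12.11 in brain and at no more than 2.62 elsewhere.

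The 8 neuron lists (synapse, receptors, cytoskeleton, channels, peptides and RNA-binding proteins) held mostly genes that were higher in brain. Each gene was read on its brightest probe set, by the mean over all 10 controls. Of 95 list entries measured, 86 were tested, 64 were higher in brain and 1 was lower. Of the 64, 18 passed the filter on low values through the brain arrays alone and so had to be high there. That holds also for 5 of the 10 higher myelin genes, 5 of the 10 higher cerebellar genes and 7 of the 13 cytoskeletal genes. Over all genes read the same way, 22.0% of 14385 were higher, 28.6% were lower and the median difference was -0.2. Read on each gene's most extreme probe set instead, 83 of 89 entries were higher, against 26.4% of 14463 genes. On the IRP2 arrays 64 entries were higher and 0 lower. Without brain replicate 1 the count was 66 higher and 3 lower, and without replicate 2 it was 62 and 2.

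Synaptic vesicle genes counted 10 higher and 0 lower of 14 tested, with a median difference of 2.89. Cplx1, complexin 1, which clamps and triggers vesicle fusion, read 13.33 and 13.37 in brain against 6.92, 7.22 and 8.26 elsewhere. It differed by 6.02 ± 0.20 (adjusted p = 1.65e-08), with both brain arrays far above the rest. The calcium sensor of release Syt1 (synaptotagmin 1) read 11.96 and 12.25 against 6.06, 6.7 and 8.13, or 5.23 ± 0.17 (adjusted p = 1.42e-08). The SNARE genes Stx1a and Vamp2 differed by 3.57 ± 0.32 (adjusted p = 1.1e-05) and 2.93 ± 0.17 (adjusted p = 7.35e-07). Rab3a, the vesicle GTPase, and Cplx2 did not pass on their brightest probe sets, at 0.41 ± 0.25 (adjusted p = 0.217) and 0.13 ± 0.45 (adjusted p = 0.827).

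Glutamate receptor genes counted 9 higher and 0 lower of 10 tested (median 4.16). The AMPA receptor subunit Gria3 read 9.52 and 9.81 against 3.65, 5.04 and 7.47, a difference of 4.49 ± 0.28 (adjusted p = 1e-06). Gria4, another subunit, differed by 3.83, the NMDA receptor subunit Grin2c of cerebellar granule cells by 2.40 and the kainate receptor subunit Grik5 by 1.04. Brain lay above every other array for these subunits. Gria2 differed by only 0.96 on its brightest probe set (adjusted p = 0.00801). Grin2b, an NMDA subunit, read 6.0 and 5.47 against 5.67 to 7.29 on its brightest probe set (adjusted p = 0.264), while its other tested probe sets gave 3.59 and 4.55.

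Inhibitory signalling gave 5 higher and 0 lower of 7 tested (median 3.01). Gabrb1, a GABA-A receptor subunit, read 8.66 and 9.68 against 3.52, 3.98 and 4.13, or 5.22 ± 0.24. It was tested only through its brain arrays, so no p is given. The GABA-B receptor gene Gabbr1 differed by 3.44, and the GABA-A subunits Gabra3 and Gabrb2 by 3.01 and 2.18. All brain arrays exceeded all others for these receptors. The enzyme that makes GABA (Gad1) and its vesicular transporter (Slc32a1) gave 0.10 and -0.46 on their brightest probe sets, with adjusted p = 0.811 and 0.149. On other probe sets the same genes gave 7.58 and 6.16.

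The postsynaptic list had the smallest median of the neuron lists, 3 higher and 0 lower of 10 tested, with a median of 0.38. Camk2b, a calcium-dependent kinase of the spine, read 9.95 and 9.87 against 5.16, 6.06 and 7.02, or 3.85 ± 0.15 (adjusted p = 4.06e-08). Homer1, a scaffold protein, differed by 3.52 ± 0.46 (adjusted p = 0.000168), although its brain arrays stood apart at 11.48 and 9.39. Nrgn, the calmodulin-binding protein neurogranin, read 7.35 in replicate 1 and 10.89 in replicate 2 against 5.15 to 10.35. Its 1.84 ± 0.69 did not pass (adjusted p = 0.0533). With the deposited range as a block the limma fit gave an adjusted p of 0.000327. Only brain has an array in each range, so that block takes up the whole gap between the brain arrays. A p-value from the range block therefore holds none of brain's own spread, and a call there is no firmer. Camk2a and Kalrn, the latter an exchange factor of dendritic spines, gave -0.29 and -0.27 on their brightest probe sets (adjusted p = 0.537 and 0.679). The third called gene, Shank3, another scaffold, differed by 1.94. Without brain replicate 1, 6 genes were higher and 2 lower, and without replicate 2 it was 4 and 1. The range block gave 5 higher. Read on the most extreme probe set, 8 of 10 postsynaptic genes were higher.

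Cytoskeletal genes of axons and dendrites were higher throughout, 13 of 13 tested, with a median of 4.11. Stmn2, a microtubule-destabilising stathmin, read 11.31 and 11.93 against 5.61, 6.37 and 7.7, or 5.12 ± 0.28 (adjusted p = 3.93e-07). The axonal kinesin Kif5a differed by 4.8, the growth cone protein Basp1 by 4.11, the intermediate filament Ina by 4.09 and the microtubule protein tau (Mapt) by 3.41. Tubb4a, a neural tubulin, was the smallest of those named at 0.78 ± 0.22 (adjusted p = 0.0175). Voltage-gated channels counted 6 higher and 0 lower of 9 tested (median 1.54). Cacng2 (stargazin), which escorts AMPA receptors, differed by 1.54 ± 0.23 (adjusted p = 0.000425), and the potassium channel Kcnc1 gave -0.57 ± 0.34 (adjusted p = 0.208) on its brightest probe set and 6.67 on another.

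Peptides and monoamine genes counted 9 higher and 1 lower of 12 tested (median 2.04), and some were shared with gut. Penk, the enkephalin precursor, read 10.37 and 11.89 in brain against 5.36, 6.4 and 7.01, or 4.85 ± 0.34 (adjusted p = 1.97e-06). Vip, vasoactive intestinal peptide, differed by 3.22 ± 0.23 from the mean of the tissues (adjusted p = 2.14e-06), yet duodenum read 9.15 and 9.25 beside 9.44 and 9.01 in brain. Tac1, the substance P precursor, read 12.1 and 9.75 in brain and 10.36 and 9.88 in duodenum, and differed from the mean by 5.6 ± 0.46 (adjusted p = 6.54e-06). Both peptides are made by gut neurons too, and brain overlapped duodenum for each. Cck, cholecystokinin, which gut endocrine cells also make, differed by 4.76, the dopamine transporter Slc6a3 by 1.73 and neuropeptide Y (Npy) by 1.71. The lower gene was the serotonin transporter Slc6a4, at -0.64 (adjusted p = 0.0282), named after its value was seen.

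RNA-binding proteins that neurons use for splicing and mRNA stability counted 9 higher and 0 lower of 11 tested (median 2.67). Rbfox1, a splicing factor, read 11.89 and 12.23 against 4.56, 5.14 and 5.76, or 6.90 ± 0.16 (adjusted p = 4.59e-09). Celf4 differed by 6.30, Rbfox3 (the neuronal marker NeuN) by 5.35 and the Hu protein Elavl3 by 2.49. The splicing factors Nova2 and Ptbp2 differed by 1.70 and 1.24. Brain lay above all 8 other controls for each of these 6 genes.

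Myelin genes counted 10 higher and 0 lower of 12 tested (median 2.51). Mal, a myelin proteolipid, read 11.58 and 11.03 against 5.09, 5.52 and 5.76, or 5.80 ± 0.19 (adjusted p = 1.65e-08). Cnp, a phosphodiesterase of oligodendrocytes, differed by 2.16, the adhesion protein Mag by 2.09 and Mobp by 2.00. Sox10, the oligodendrocyte transcription factor, read 8.62 and 8.75 against 7.14 to 9.05 and did not pass (0.65 ± 0.30, adjusted p = 0.107). Mbp depended on the probe set: its brightest gave -0.11 ± 0.44 (adjusted p = 0.846), while 6 of its 8 tested probe sets were called higher.

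Astrocyte genes counted 12 higher and 0 lower of 14 tested (median 2.16). Aldoc, the brain aldolase, read 11.73 and 12.59 against 6.03, 6.86 and 7.96, or 5.33 ± 0.28 (adjusted p = 2.95e-07). The matrix protein Sparcl1 differed by 3.99, Ndrg2 by 2.70, the gap junction protein Gja1 by 2.64, glutamine synthetase (Glul) by 1.48 and clusterin (Clu) by 1.00. Ndrg2 and Clu overlapped, with other arrays as high as 12.68 and 13.35.

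Microglial genes went the other way, with 1 higher and 5 lower of 11 tested and a median of -0.55. Spleen, liver and marrow hold macrophages that share these genes with microglia. C1qb, a complement chain, read 8.59 and 8.53 in brain against 8.62, 10.03 and 11.26, or -1.32 ± 0.22 (adjusted p = 0.000841). The colony-stimulating factor receptor Csf1r differed by -0.65, and C1qa and C1qc by -0.91 and -1.09. The higher gene was the receptor Gpr34, at 0.69. Without brain replicate 1 the list had 1 higher and 2 lower, and without replicate 2 it had 0 and 6. Vessel genes counted 7 higher and 2 lower of 11 tested (median 0.79). The blood-brain barrier glucose transporter Slc2a1 read 9.42 and 9.28 against 6.76, 7.47 and 7.96 and differed by 1.90 ± 0.17 (adjusted p = 1.22e-05), and the VEGF receptor Kdr by -0.89 ± 0.15 (adjusted p = 0.00103). Kcnj8, a potassium channel of pericytes, was the other lower gene, at -0.87.

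Choroid plexus and ependyma gave 3 higher and 1 lower of 5 tested. Ttr, transthyretin, which choroid plexus and liver secrete, read 13.72 and 13.62 in brain and 13.92 on both liver arrays. Duodenum read 9.17 and 9.06, bone marrow 4.19 and 4.44, and the spleen arrays disagreed at 3.97 and 9.21. The 5.19 ± 0.97 between brain and the mean of the tissues (adjusted p = 0.0016) thus stands beside a difference from liver of -0.24. Kcnj13, a potassium channel of choroid plexus, differed by 1.08 and Ccdc153, an ependymal gene, by 0.92, while the water channel Aqp1, which kidney and red cells use too, differed by -3.47.

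Lists of neurons from named brain regions counted 24 higher and 1 lower of 37 tested. The count was 23 and 4 without brain replicate 1, with 3 lower in the thalamus and hypothalamus list, and 22 and 0 without replicate 2. The cerebellum list had 10 of 10 tested higher and a median of 4.52, beside medians of 0.78 for cortex and hippocampus (5 of 9 higher), 0.56 for striatum (4 of 8) and 0.39 for thalamus and hypothalamus (5 higher and 1 lower of 10, the kinase Prkcd at -0.66). The gap depends on the probe set. Read on each gene's most extreme one, cortex and hippocampus gave 8 of 9 higher (median 2.08). Striatum then gave 6 of 8 with 1 lower (1.13), thalamus and hypothalamus 7 of 10 with 1 lower (1.37), and cerebellum 10 of 10 (5.4). Over all genes read that way, 26.4% were higher and 31.8% lower. No test compared these lists, and the sampling of regions is not given in the labels. Neurod1, a transcription factor of granule cells, read 9.37 and 9.55 against 3.68, 4.31 and 6.37, or 4.82 ± 0.20 (adjusted p = 6.86e-08). Car8, a Purkinje cell protein, differed by 4.22, parvalbumin (Pvalb) by 4.21, Pcp2 of Purkinje cells by 3.46, and the synapse organisers Cbln3 and Cbln1 by 1.98 and 1.6. Car8 was close to overlap, with another array at 10.39 below brain's 10.47 and 10.69. Wfs1, which marks hippocampal and amygdala neurons, read 11.41 on both brain arrays against 8.48 to 10.5 elsewhere and differed by 2.08 ± 0.21 (adjusted p = 2.64e-05).

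The pituitary hormones Prl and Gh were high in brain replicate 1 only, mostly on probe sets that were not tested, and 0 of the 3 tested hormone genes were called (limma, adjusted p under 0.05). With the deposited range as a block 1 was higher, and without brain replicate 1 it was 1 lower. Gh, growth hormone, gave 0.58 ± 0.31 on its tested probe set and did not pass (adjusted p = 0.164). It read 7.48 in replicate 1 and 6.12 in replicate 2, the latter inside the 5.74 to 6.88 of the other tissues. The range block gave an adjusted p of 0.0303 for Gh. That fit leaves out the gap between the brain arrays, so the call does not show that both were higher. Pomc, the precursor of pituitary and hypothalamic peptides, also parted the replicates on 1 probe set, at 8.62 and 5.64 against 3.77 to 5.37 elsewhere. That probe set was called higher at 2.75 ± 0.57 (adjusted p = 0.003), while its brighter one gave 0.13 (adjusted p = 0.655). Immediate early genes, which neurons switch on with activity, counted 3 higher and 1 lower of 11 tested (median -0.05). Egr1 read 11.87 and 10.55 against 7.4, 9.1 and 10.2, or 2.17 ± 0.38 (adjusted p = 0.00101), and Fos gave 0.27 ± 0.33 (adjusted p = 0.523). Homer1 (3.52) and Egr2 (0.94) were the other higher genes and Ier2 (-1.77) the lower one. Without brain replicate 1 the count was 2 higher and 3 lower.

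Iron genes were more often lower in brain, 9 lower and 1 higher of 14 tested, with a median of -0.73. Slc40a1, the iron exporter ferroportin, read 8.11 and 7.73 in brain against 10.62, 11.85 and 13.08 elsewhere. Every other control lay above brain, by -3.96 ± 0.16 in the fit (adjusted p = 6.43e-08). Aco1 (iron regulatory protein 1) differed by -1.28 ± 0.16 (adjusted p = 9.59e-05) and Ireb2, the gene of IRP2, by -0.57 ± 0.18 (adjusted p = 0.0286). The transferrin receptor Tfrc differed by -0.54 ± 0.16 (adjusted p = 0.0224), with brain at 11.08 and 11.34 inside the 10.45 to 12.85 of the others. Ferritin heavy chain (Fth1) and the hypoxia factor Epas1 gave 0.18 and 0.22 and did not pass (adjusted p = 0.446 and 0.418). The higher gene was Steap2, a ferrireductase, at 1.19. Without brain replicate 1 the list had 1 higher and 6 lower. Within the higher deposited range Tfrc gave 0.02, and within the lower range Ireb2 gave 0.04. Against bone marrow, which shared brain's diet, 3 iron genes were higher and 6 lower, and Slc40a1 differed by -2.76 (adjusted p = 3.61e-06) but Aco1 by -0.19 (adjusted p = 0.45).

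The amyloid precursor gene App and the prion gene Prnp, neural mRNAs listed for reported stem-loops, were both higher. App read 13.21 and 12.66 against 9.07, 11.21 and 12.34, or 1.82 ± 0.34 (adjusted p = 0.00168). Prnp read 12.62 and 12.67 against 8.33, 9.2 and 9.98, or 3.47 ± 0.14 (adjusted p = 5.85e-08). Neither overlapped the other tissues.

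Antigen presentation was the list furthest below the other tissues, 13 lower of 13 tested with a median of -3.51, and 12 of the 13 lay below all 8 other controls (10.0% of probe sets did), all but the class II activator Ciita. H2-Aa, an MHC class II chain, read 6.36 and 6.75 in brain against 9.4, 11.33 and 13.06, or -4.75 ± 0.16 (adjusted p = 2.22e-08). H2-Ab1, its partner chain, differed by -4.71. B2m, the light chain of class I, read 8.32 and 8.68 against 10.09, 11.79 and 12.53, or -3.16 ± 0.24 (adjusted p = 3.38e-06). The class I heavy chains H2-K1 and H2-D1 differed by -3.60 and -3.51 and the peptide loader Tapbp by -2.41. Probe sets of H2-K1, H2-D1 and related class I genes can share targets, so these are not independent.

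Cell cycle genes were lower in 13 of 13 tested (median -2.72). Rrm2, the ribonucleotide reductase subunit made in S phase, read 6.54 and 6.25 against 8.96, 11.3 and 13.0, or -4.78 ± 0.16 (adjusted p = 1.74e-08). Top2a, a topoisomerase of dividing cells, differed by -3.58 and the replication helicase genes Mcm6, Mcm5 and Mcm2 by -2.96, -2.57 and -2.32. Brain was below all 8 others for 8 of the 14 genes measured. For Mcm2, Mcm5 and Top2a the lowest other array fell within or below the brain values. The other tissues hold dividing cells of the marrow, the crypts and the lymphoid follicles.

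Markers of the other tissues were lower in 49 of 61 tested entries and higher in 2, over 6 lists. Myeloid genes counted 12 lower of 12 (median -2.03), with the granule genes Camp at -2.20 and Ngp at -3.36. Erythroid genes counted 8 of 8 (median -3.02), with the heme enzyme Alas2 at -3.10, the blood group protein Ermap at -2.67 and the globin regulator Klf1 at -3.01. Within the higher deposited range, where brain meets duodenum and liver only, 1 myeloid, 2 erythroid and 3 lymphocyte genes were lower. Lymphocyte genes counted 9 lower of 12 (median -2.02). Cd22 of B cells differed by -2.41, and Cd8a gave -0.31 ± 0.47 (adjusted p = 0.612), with brain at 11.07 and 9.18. Muscle genes gave 1 higher (Pvalb, also a gene of neurons) and 1 lower (Myh11 of smooth muscle, -0.87) of 4, and 3 lower without brain replicate 1.

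Liver genes counted 8 lower and 1 higher (Ttr) of 12 tested, with a median of -1.30. Apoa1, the main protein of HDL, differed by -3.58 ± 0.26 (adjusted p = 2.87e-06). Duodenal genes counted 11 lower of 13 (median -2.72), and 2 of them parted the brain libraries. Fabp1, the fatty acid carrier of liver and gut, read 7.95 in replicate 1 and 3.64 in replicate 2, inside the 2.41 to 13.75 of the others, and differed by -3.46 ± 0.83 (adjusted p = 0.00679). Epcam, an epithelial adhesion protein, read 11.39 and 7.93 and gave -0.16 ± 0.70 (adjusted p = 0.867), against -2.90 on another probe set. Apoa4 and the lectin Lgals4 differed by -4.04 and -2.76. Epithelial genes counted 9 lower of 12 (median -1.32), with Krt8, a simple epithelial keratin, at -3.17 and the desmosome protein Dsp at -1.18. Within the lower deposited range, where brain meets spleen and bone marrow only, 0 liver, 3 duodenal and 2 epithelial genes were lower, 2 epithelial genes were higher, and Dsp gave 1.81.

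Housekeeping genes counted 1 higher and 2 lower of 9, with a median of -0.10. Ywhaz, an adaptor protein, differed by 1.05, the ribosomal protein gene Rplp0 by -1.85 and the lysosomal enzyme Gusb by -2.07. Without brain replicate 1 the higher count was 3, and without replicate 2 it was 2. Eef1a1, a translation factor, gave -0.10 ± 0.24 (adjusted p = 0.765) and Pgk1, a glycolytic enzyme, 0.43 ± 0.17 (adjusted p = 0.0574). For Pgk1 the range block, which holds none of brain's own spread, gave an adjusted p of 0.0322.

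**Figure D3:**
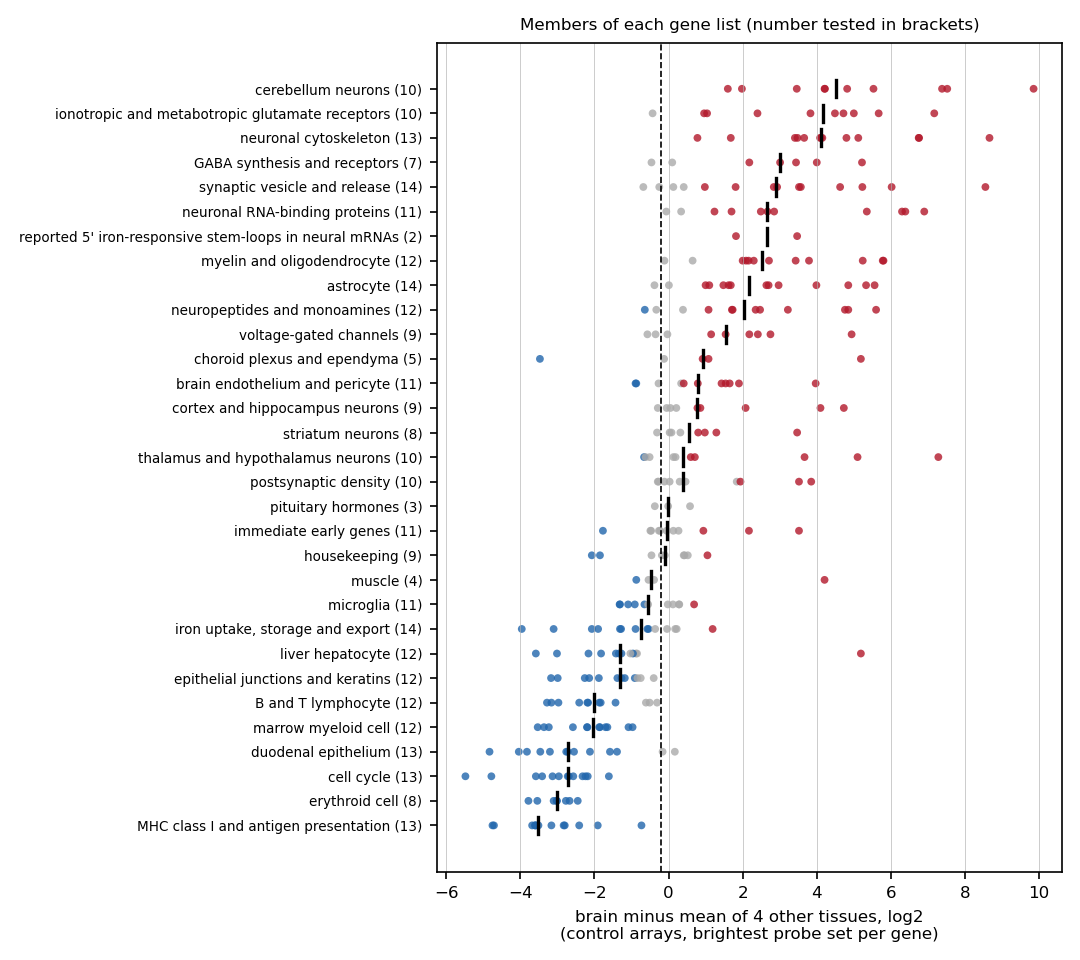
Difference between brain controls and the mean of the other 4 tissues' controls (log2, x axis) for each tested member of the gene lists, 1 row per list, 1 point per gene on its brightest probe set, with a bar at the list's median and a dashed line at the median of all genes (-0.2). Red points were called higher, blue points lower, and grey points were not called. Cytoskeleton (median 4.11), glutamate receptors (4.16) and cerebellum (4.52) lie to the right, and antigen presentation (-3.51), erythroid (-3.02) and cell cycle (-2.72) genes to the left.

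Neural and general members of 14 pairs of related genes were set side by side, with no test between the members of a pair. Of the 12 neural members tested, 11 were higher and 0 lower (median 3.67), among them Snap25, Eno2 and Tubb3, which passed the filter through the brain arrays alone. Of the 11 general members tested, 3 were higher and 4 lower (median -0.44). That is near the share over all genes on their brightest probe set, 22.0% higher and 28.6% lower (median -0.2). The general members include forms of single tissues, Ckm of muscle and Slc2a2 of liver, and Slc2a2 is among the lower ones. Snap25 differed by 8.55 and Snap23, the SNARE protein of other cells, read 6.15 and 5.87 in brain against 6.54 to 7.89 and differed by -1.16 ± 0.17 (adjusted p = 0.000304). Dnm1, the dynamin of synaptic vesicle recycling, differed by 5.03 and Dnm2 gave -0.44 (adjusted p = 0.0603). For Dnm2 the deposited range as a block, which holds none of brain's own spread, gave an adjusted p of 0.045. Of its 5 tested probe sets, 1 was called lower. Elavl4 read 8.72 and 5.77 in brain, against 3.35 to 5.69 elsewhere, and differed by 2.67 ± 0.56 (adjusted p = 0.00321), while Elavl1 differed by -1.42. The brain arrays of Elavl4 had an SD of 2.09, wider than the shared spread behind that SE. The pair Ptbp2 and Ptbp1 gave 1.24 and -0.10, Ptbp1 without a call on its brightest probe set (adjusted p = 0.834). Of the 3 tested probe sets of Ptbp1, 1 was called lower.

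Other neural members were the neuronal enolase Eno2 at 6.77, Kif5a at 4.8 beside 1.11 for Kif5b, Tubb3 at 4.15 beside 1.15 for Tubb5, the brain creatine kinase Ckb at 3.19 beside -0.54 (adjusted p = 0.361) for the muscle form Ckm, and the metallothionein Mt3 at 1.62 beside 1.34 for Mt1. Of the 2 tested probe sets of Tubb5, the brightest, given here, was called higher and the other lower. Slc2a3, the neuronal glucose transporter, differed by 2.83 and the liver transporter Slc2a2 by -3.36. Slc2a3 gave -0.48 against bone marrow alone, and Ckb gave 0.91 against duodenum alone (adjusted p = 0.178). Stxbp2 differed by -0.74 (adjusted p = 0.00467), and its neural partner is not analysed here. Syp, synaptophysin, was the neural member without a call, at -0.68 (adjusted p = 0.142) on its brightest probe set and 5.85 on another. Its partner Sypl gave -0.26 on its brightest probe set (adjusted p = 0.398), while 2 of its 4 tested probe sets were called lower.

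**Figure D4:**
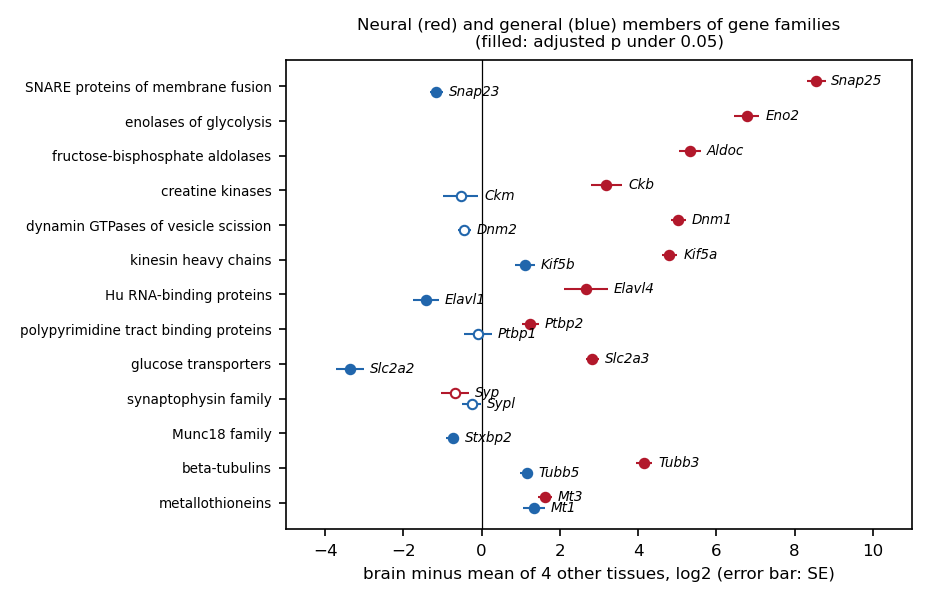
Difference between brain controls and the mean of the other 4 tissues' controls (log2, x axis) for the neural and the general member of each gene family, 1 row per family, with bars for the SE and filled symbols for calls. The neural members lie to the right, up to 8.55 for Snap25, except Syp at -0.68.

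Against bone marrow alone, the tissue that shared brain's age and diet, 6679 probe sets were higher in brain (23.3%) and 7524 lower (26.2%). The balance depends on scaling: 47.0% of calls were higher on quantile-normalized values, 62.3% on the deposited values and 59.4% with arrays centred on their medians. The neuron lists gave 61 entries higher and 4 lower. Myelin genes gave 9 higher, astrocyte genes 13 and cerebellar genes 10, with 0 lower in each. Antigen presentation and cell cycle lists stayed at 13 lower of 13 each. Liver genes counted 2 higher and 1 lower there, duodenal genes 1 and 1, and epithelial genes 2 and 1.

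The other single-tissue comparisons share the brain arrays with this one. They called 5939 probe sets higher and 5621 lower against duodenum (20.7% and 19.6%), 6064 and 5788 against liver (21.1% and 20.2%) and 5434 and 6745 against spleen (18.9% and 23.5%). With median-centred arrays the share of calls that were higher against liver and duodenum moved by less than 10 percentage points.

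The differences between the brain libraries reached particular genes. On 205 probe sets replicate 1 exceeded replicate 2 by over 2 (log2) in both the control and the IRP2 reaction, and on 101 the reverse held, against at most 24 in any other tissue in 1 direction. Of the 205, 7 were brain-rich, and of the 101, 17 were, beside 5392 of all 45037 probe sets. Whether these shares differ was not tested. The rule needs both brain arrays above all 8 others, and a probe set with 1 low brain array meets it less easily. Slc5a9, a sugar transporter, read 11.29 and 7.39. Pacsin1, a neuronal endocytosis protein, read 7.42 and 10.77, and Gpm6b, a myelin-related proteolipid, 7.03 and 10.1. H2-DMb2, an MHC class II chaperone chain, read 3.61 and 7.86. Many of these probe sets also divided the other tissues by deposited range. On 139 of the 205 (67.8%) all duodenum and liver arrays exceeded all spleen and bone marrow arrays, as on 19.9% of all probe sets, and on 84 of the 101 (83.2%) the reverse held, as on 22.8% of all. Replicate, pool and deposited range cannot be told apart in brain.

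**Figure D5:**
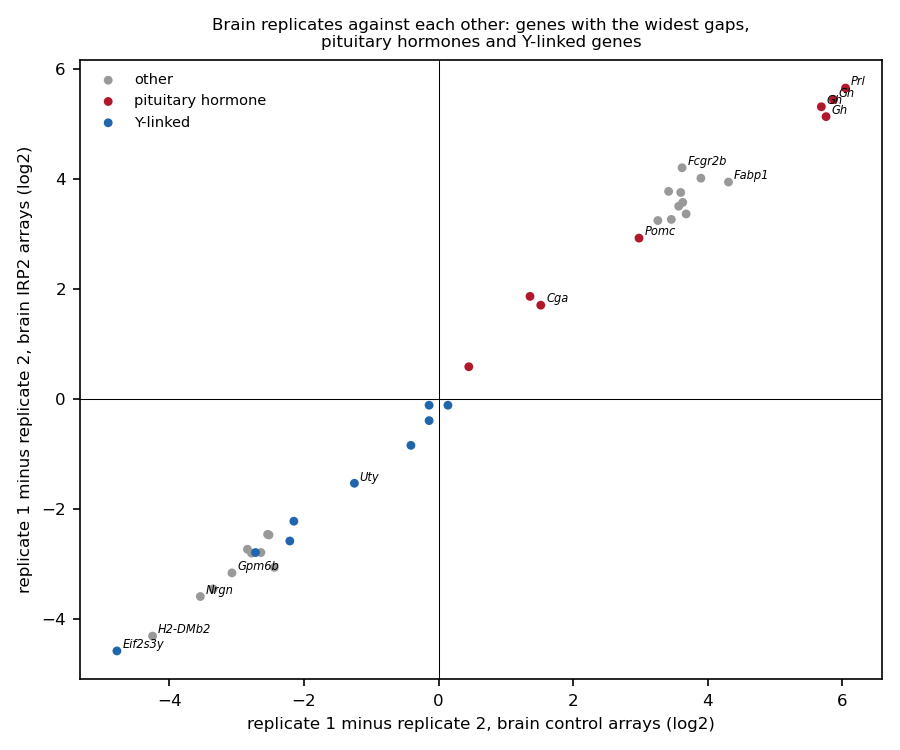
Difference between brain replicate 1 and replicate 2 (log2) in control reactions (x axis) and IRP2 reactions (y axis), 1 point per probe set, for pituitary hormone genes (red), Y-linked genes (blue) and genes with the widest gaps between the replicates (grey). Prolactin and growth hormone lie at the upper right, with replicate 1 higher in both reactions, and the Y-linked Eif2s3y at the lower left.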

How the data were processed

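Files hold log2 intensities per probe set, which the authors made by RMA or MAS5 (GCOS) with quantile normalization, per the submitters' processing notes, which give no versions. The arrays give no read depth, and their number limits the precision. Members, lists and tests were chosen with earlier results of these data known. The 10 control arrays were quantile-normalized together and fitted in limma 3.58.1 (R 4.3.3) with a mean per tissue (5 residual degrees of freedom, prior 4.36), and the 10 IRP2 arrays in the same way. Calls were at a Benjamini-Hochberg adjusted p under 0.05 over 28716 probe sets, and the text's adjusted p-values come from limma. The method was tested on simulated data. Symbols came from the platform annotation: 34945 probe sets had 1 symbol, 932 several and 9160 none, and 34741 matched RefSeq. List genes were read on the probe set with the highest mean over the 10 controls. Named were the 15 highest and 10 lowest called genes that met the rule or its mirror, the brightest members of each list, every pair, and 3 probe sets on each side of the rule. Those without a single symbol were counted and not named. Alternatives are given in the closing section.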

Additional observations from a re-analysis of the deposited data

Results flagged for a closer look

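Signals well above the other tissues lay on 4 pituitary hormone probe sets that the test left out, because they reached their array's median on 1 control array only. All 4 were high in brain replicate 1 alone. The growth hormone gene Gh read 9.96, 9.17 and 9.58 there and 4.09, 3.41 and 3.89 in replicate 2. Prl read 10.23 and 4.18. The IRP2 arrays of brain replicate 1 gave 9.66, 8.99 and 9.23 for Gh and 9.94 for Prl. Groups of 2 arrays are too small to test for outliers.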

How the results depend on the processing

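Higher and lower calls moved by less than 1.5 times under these settings: 6039 and 6048 on deposited values, 5943 and 7027 on ranks, 6005 and 5846 with median-centred arrays, 7188 and 8011 without the filter, 6642 and 8655 with the deposited range as a block, 5984 and 6346 in the higher range alone, 5165 and 4996 in the lower range alone, and 5475 to 6526 and 6228 to 8385 with 1 array left out. The range block takes up the whole gap between the 2 brain arrays, and each range alone holds 1 brain array. Brain's own spread thus enters none of those fits. Leaving out bone marrow, added after seeing the data, gave 6209 and 7544. A replicate block gave 5962 and 7113. Same-numbered arrays of different tissues deviated together at r from -0.348 to 0.354, over 0.1 in 4 of 10 pairs, so the numbers do not pair the arrays. Lower calls against bone marrow were 4660 on deposited values and 4948 with median-centred arrays, and against liver 3686 to 8065 with 1 array left out. The brain-rich count was 11046 in the higher range alone and 11131 in the lower, the count below all 8 was 17161 and 16807, where each brain array meets only 4 others. With each brain array set against its own range and both required, added after seeing the data, they were 7083 and 9865. With 1 array left out, they ran from 5467 to 7914 and from 4700 to 10434. A block was not run for these counts, which are no fit.

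Of 151 genes compared, 127 were called, and 98 of those kept direction and call under the alternatives run. 18 changed sign somewhere, the cause not tested, and 4 of these were called with all arrays (Tfrc, Ireb2, Camp and Dsp). In the higher range alone Ptbp1 gave 0.15, Kalrn 0.01, Mbp (brightest probe set) 0.40, Fos -0.50, Tfrc 0.02, Epas1 -0.65 and Camp 0.15. In the lower range alone Gh gave -0.37, Ireb2 0.04, Dsp 1.81 and Eef1a1 0.25. Mbp gave 0.04 on deposited values and 0.06 with median-centred arrays. With 1 array left out Ckm ran from -1.62 to 0.54, Ptbp1 from -0.77 to 0.56, Sypl from -0.54 to 0.01, Cplx2 from -0.54 to 0.80, Gad1 from -0.49 to 0.69, Kalrn from -1.26 to 0.72, Camk2a from -1.16 to 0.58, Mbp from -1.18 to 0.96, Gh from -0.10 to 1.24, Fos from -0.02 to 0.56, Epcam from -1.89 to 1.57, Cd8a from -1.26 to 0.64 and Eef1a1 from -0.53 to 0.34. In each of these the ends were the fits without one or the other brain array, which then assume that the lone array varies like the other groups. The precision is limited by 2 arrays per tissue.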
